A study of Mus musculus with 6 samples.

Results

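The 9 genes described here encode the glutamate, amino acid, ion and water transport proteins for which spinal cord astrocytes are best known, and glutamine synthetase. They were chosen by gene symbol (Slc1a2, Slc1a3, Slc1a4, Glul, Aqp4, Slc4a4, Atp1b2, Slc6a11 and Slc6a9), with earlier results of these data known. All 9 had a row among the 36629 genes of the series, and all 9 passed the filter on low values. RNA was measured in C57/BL6 mice aged 3 to 5 weeks, in pieces of spinal cord from T8 to T12 taken 3 days after surgery. Sham animals (3 libraries) had a laminectomy over T9 and T10, which exposes the cord by removing the roof of the vertebrae. Animals with spinal cord injury (SCI, 3 libraries) had the same exposure and a crush of the cord for 5 seconds with a vascular clip of 60 g force. The labels name no genetic change in either group, and nothing in them says whether a library came from a single animal or from pooled animals, so the p-values measure the spread between these libraries.

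Astrocytes wrap synapses and blood vessels, and they clear transmitters that neurons release. Glutamate is taken up by sodium-driven carriers and turned into glutamine, which returns to neurons, while GABA and glycine are taken up by carriers of a separate family. The same cells buffer potassium, move bicarbonate together with sodium, and hold a dense array of water channels in the endfeet that face vessels and the cord surface. Several of these functions depend on the sodium gradient that the sodium pump maintains.

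Promoter sequence is shown for 3 members whose measured changes differ: Slc6a11, which had the largest fall, Slc1a3, with a fall of middle size, and Slc1a4, which did not pass the test. The set of RefSeq start sites used here held 7 of the 9 members (10 windows, build GRCm38.p6), without Aqp4 and Atp1b2. The 250 bases before the start are printed 5′ to 3′ on the strand of the gene. Capitals mark the GC box GGGCGG and the CCAAT box on either strand, so that CCGCCC and ATTGG are the same motifs read from the other strand.
Slc6a11: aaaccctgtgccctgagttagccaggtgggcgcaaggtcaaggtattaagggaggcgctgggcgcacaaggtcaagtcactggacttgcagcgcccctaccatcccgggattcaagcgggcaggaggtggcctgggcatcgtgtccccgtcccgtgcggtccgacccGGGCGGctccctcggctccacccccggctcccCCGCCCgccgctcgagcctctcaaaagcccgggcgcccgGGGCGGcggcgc
Slc1a3: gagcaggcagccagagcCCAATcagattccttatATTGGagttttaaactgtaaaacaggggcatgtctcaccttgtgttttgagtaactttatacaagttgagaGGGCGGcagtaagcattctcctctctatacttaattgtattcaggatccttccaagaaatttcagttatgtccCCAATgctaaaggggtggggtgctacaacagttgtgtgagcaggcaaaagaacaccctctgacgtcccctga
Slc1a4: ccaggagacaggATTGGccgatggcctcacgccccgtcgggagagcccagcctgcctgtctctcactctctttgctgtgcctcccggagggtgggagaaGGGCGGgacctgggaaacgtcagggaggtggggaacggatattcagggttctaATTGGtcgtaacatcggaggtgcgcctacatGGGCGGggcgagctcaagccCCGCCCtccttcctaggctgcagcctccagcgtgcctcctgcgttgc
The window of Slc6a11 lies at chr6:114130991-114131240 on the plus strand and held 3 GC boxes and 0 CCAAT boxes, with 71.2% G and C. That of Slc1a3 lies at chr15:8710808-8711057 on the minus strand and held 1 GC box and 3 CCAAT boxes, with 44.8% G and C. That of Slc1a4 lies at chr11:20332714-20332963 on the minus strand and held 3 GC boxes and 2 CCAAT boxes, with 64.8% G and C. Over the 32851 RefSeq windows of the same length in that set, 32.7% held a GC box and 33.8% a CCAAT box, so neither motif is rare. The motifs do not overlap each other in these windows, and a match describes the letters only.

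Most of these transport genes were lower in the injured cord, and the water channel was higher. Of the 9 members, 7 fell (Slc6a11, Slc1a2, Glul, Slc6a9, Slc1a3, Slc4a4 and Atp1b2), Aqp4 rose, and Slc1a4 did not pass. The call was limma's adjusted p under 0.05 (Benjamini-Hochberg over 17435 genes) on log2(FPKM + 1), where FPKM is fragments scaled to the length of the gene model and to the fragments of the library. Over all genes tested 30.8% were called lower and 26.7% higher, and 57.5% either way. The median log2 change was −0.58 over the 9 members and −0.08 over all genes tested. The sham and SCI libraries did not overlap for 8 of the 9 members, against 67.6% of all genes tested. In bulk tissue fewer cells of a type and less RNA per cell cannot be told apart, and this holds for every value given here.

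**Figure D1:**
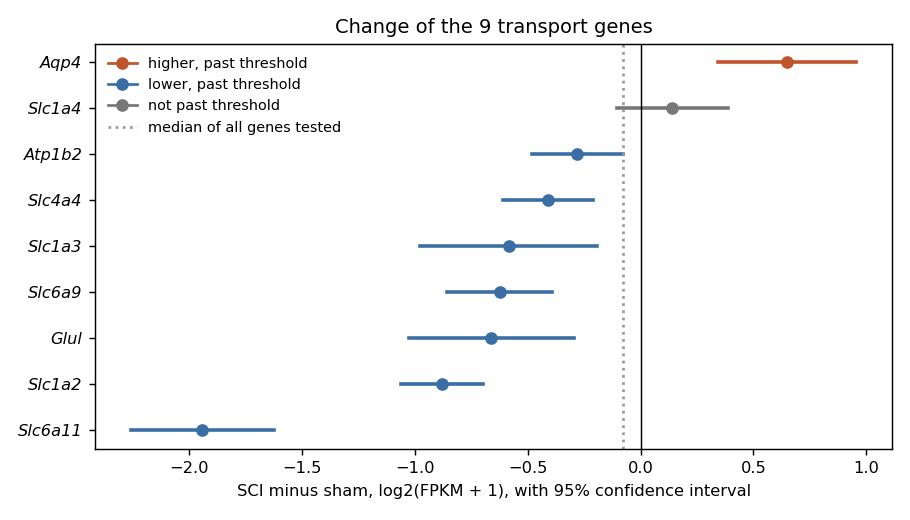
Change of each of the 9 members (SCI minus sham, log2(FPKM + 1)) with its 95% confidence interval from limma, ordered from highest to lowest. Aqp4 (0.65) is the only member past the threshold on the right of zero, Slc1a4 (0.14) has an interval that spans zero, and Slc6a11 (−1.94) lies farthest to the left.

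Summed FPKM lay between 716215 and 734791 in all 6 libraries. The mitochondrial share separated the groups, at 22.0%, 24.1% and 23.8% in the sham and 19.2%, 19.3% and 20.3% in the SCI libraries. FPKM hold no read counts, so the depth behind each value is unknown. Haemoglobin genes took 0.11% to 0.13% of the total in the sham libraries, against 0.66%, 6.16% and 0.21% in SCI replicates 1, 2 and 3. Markers of several other cell types moved with the injury. The counts below stand beside 30.8% lower and 26.7% higher over all genes tested. Of 12 microglia and macrophage markers 12 were higher (summed FPKM 281 to 349 in sham, 2212 to 3245 in SCI libraries), and of 10 neuron markers 9 were lower (4553 to 5222 against 1493 to 2571). Of 8 endothelial markers 8 were higher (185 to 202 against 406 to 460), of 10 oligodendrocyte markers 6 were lower and 1 higher (7930 to 8582 against 4825 to 6311), and of 6 ependymal markers 3 were lower (39.2 to 60.6 against 32.3 to 34.5). Of 8 precursor markers 4 were higher and 1 lower, of 6 tested neutrophil markers 5 were higher, of 7 fibroblast markers 5 were higher, of 5 red cell markers 3 were higher and of 8 Schwann cell markers 1 was higher and 4 lower. Of 5 tested skeletal muscle markers 0 were higher and 0 lower, and of 4 tested sensory ganglion neuron markers 1 was lower and 0 higher. Sham replicate 2 had the lowest Schwann sum of its group (4082 against 5376 and 5291). SCI replicate 3 alone held Scn10a and Mrgprd, genes of sensory ganglion neurons that were listed at 0 in the other 5 libraries, and had the highest sum of skeletal muscle markers (434 against 11.4 to 110 in the others). Among these markers, Ms4a7 (macrophages) and Cxcr2 (neutrophils) entered the test only through the SCI libraries, so they had to differ. Ptprc, of the microglia and macrophage list, was at 1.02, 0.72 and 0.75 FPKM in sham, so it passed the filter mainly through the SCI libraries. No marker list had a gene at 0 in all 6 libraries. The part of any of these in the results on the 9 members was not tested.

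Astrocytes themselves were represented in every library, and their marker genes went both ways. Of 10 astrocyte identity markers 4 were higher, 5 lower and 1 did not pass, and their summed FPKM lay between 3651 and 3955 in sham and between 4595 and 4861 in SCI libraries. The median log2 change of the list was −0.18. Without Gfap the direction of the sum turned, from 2991 to 3421 FPKM in the sham cords to 1824 to 2095 after injury, a sum taken after the values were seen. The astrocyte filament gene Gfap rose, from 641 ± 116 FPKM in sham to 2781 ± 63.0 in SCI libraries. Such values are mean ± SD with n = 3 libraries per group throughout. Aldh1l1, a folate enzyme widely used to mark astrocytes, measured 34.80, 26.08 and 31.40 FPKM without injury, against 66.26, 62.88 and 63.44 with it (log2 change 1.05). Aldoc, the brain aldolase, fell from 1094 ± 134 to 549 ± 72.2. Ntsr2, a neurotensin receptor of astrocytes, went from 115 ± 7.18 to 35.7 ± 3.17 FPKM (log2 change −1.67), and Acsbg1, a fatty acid activating enzyme, was at 160 ± 7.48 and 166 ± 4.49 (log2 change 0.05, not past the threshold).

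**Figure D2:**
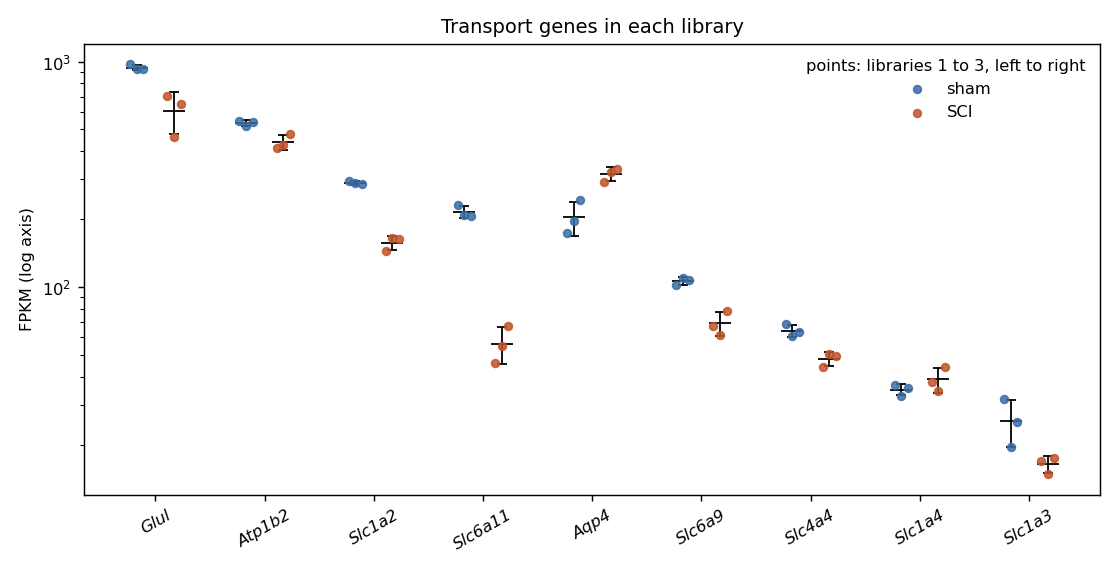
FPKM of each member in every library on a log axis, sham and SCI side by side, with the group mean and SD as black bars and members ordered by their sham mean. The sham libraries lie above the SCI libraries for 7 members, below them for Aqp4, and among them for Slc1a4.

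FPKM are per length, so the levels of the members can be ranked. In sham cord the order was Glul (942 FPKM), Atp1b2 (533), Slc1a2 (290), Slc6a11 (216), Aqp4 (204), Slc6a9 (106), Slc4a4 (64.1), Slc1a4 (35.1) and Slc1a3 (25.5). Only Slc6a11 and Aqp4 overlapped among neighbours in that order. In injured cord Aqp4 (317 FPKM) came next after Glul and Atp1b2 and above Slc1a2 (157), while Slc6a11 (56.0) came below Slc6a9 (68.9). There Glul and Atp1b2 overlapped, and so did each neighbouring pair from Slc6a9 through Slc6a11 and Slc4a4 to Slc1a4.

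Glutamate uptake is led by Slc1a2, which encodes GLT-1, the main glutamate carrier of astrocytes. Slc1a2 measured 295.80, 288.33 and 286.10 FPKM in sham replicates 1, 2 and 3, against 145.08, 164.23 and 162.83 in the SCI replicates, and values of other genes follow the same replicate order. The groups were far apart and each was tight. The level fell 1.84-fold, a log2 change of −0.88 (SE 0.08, limma adjusted p = 1.35e-04). Slc1a3, which encodes GLAST, the other glutamate carrier of astrocytes, measured 31.76, 19.61 and 25.16 FPKM in the sham cords, against 16.98, 14.77 and 17.51 after injury. The sham libraries spread more widely than the SCI libraries, and the lowest of them lay close above the highest SCI library. The log2 change was −0.58 (SE 0.17, limma adjusted p = 0.020), and the call ended without sham replicate 3 (adjusted p = 0.057) or without SCI replicate 2 (adjusted p = 0.053).

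The proportion of Slc1a2 to Slc1a3 overlapped between the groups. Slc1a2 was 9.31, 14.7 and 11.4 times Slc1a3 in the sham libraries and 8.54, 11.1 and 9.30 times in the SCI libraries. The difference of the log2 ratio was −0.27 (exact permutation p = 0.20, two-sided, where 0.10 is the smallest that 3 against 3 allows). It was 1 of 8 ratios compared, with adjusted p = 0.23 here, 0.40 for Glul against Slc1a2 and 0.13 for each of the other 4 given here, whose groups did not overlap. Of the summed FPKM of the 5 acidic amino acid carriers of the SLC1 family, Slc1a2 made up 82.0% ± 1.24 in sham and 81.3% ± 3.86 in SCI libraries. The other members of that family are Slc1a1 and Slc1a6, the carriers of neurons, and Slc1a7. Slc1a1 fell from 24.0 ± 0.461 to 12.2 ± 3.25 FPKM and Slc1a6 from 13.9 ± 1.3 to 7.22 ± 2.79, and the call on Slc1a6 ended without sham replicate 3 (log2 change −0.86, limma adjusted p = 0.060), while its log2 change went from −0.92 to −0.60 without SCI replicate 2. Slc1a7 stayed between 0.09 and 0.50 FPKM and was not tested. The family sum went from 354 ± 9.92 to 193 ± 9.52 FPKM.

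Slc1a2 was also compared with Aldh1l1 in the same library, since a ratio within a library does not depend on how that library was scaled. Slc1a2 was 8.50, 11.1 and 9.11 times Aldh1l1 in sham and 2.19, 2.61 and 2.57 times in SCI libraries. The ratio was 3.88-fold lower in injured cord and lower in each of 3 SCI libraries than in any sham library (exact permutation p = 0.10, the smallest possible). Aldh1l1 itself rose (log2 change 1.05), so the ratio holds that rise as well as the fall of Slc1a2. Of the 10 astrocyte markers 4 rose and 5 fell, Aldoc among the latter (log2 change −0.99). The ratio therefore depends on the marker chosen, and it does not measure Slc1a2 per astrocyte.

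Glul encodes glutamine synthetase, which joins ammonia to the glutamate that astrocytes take up. Glul measured 971.45, 922.87 and 930.90 FPKM in the sham cords, against 700.75, 462.35 and 651.22 after injury. All SCI libraries were lower, and replicate 2 was lowest by a wide margin. The log2 change was −0.66 (SE 0.16, limma adjusted p = 0.0091) and was −0.48 without SCI replicate 2. The ratio of Glul to Slc1a2 was 3.28, 3.20 and 3.25 in sham and 4.83, 2.82 and 4.0 in SCI libraries. The groups overlapped in this ratio (log2 difference 0.22, exact permutation p = 0.40).

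Slc1a4, which encodes ASCT1, a carrier of serine and other neutral amino acids, measured 36.79, 32.93 and 35.55 FPKM in the sham cords, against 37.91, 34.65 and 44.33 after injury. The groups overlapped, and SCI replicate 3 was the highest. The log2 change was 0.14 with a 95% confidence interval from −0.10 to 0.39 (limma adjusted p = 0.28). Its close relative Slc1a5 (ASCT2), which carries glutamine into dividing cells, rose from 3.75 ± 1.23 to 10.3 ± 3.72 FPKM. The share of Slc1a4 in the sum of both was 90.0%, 93.2% and 88.1% in sham and 80.5%, 70.7% and 86.1% in SCI libraries.

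The list of other glutamate and neutral amino acid transport genes had 11 of 17 tested members lower and 3 higher, with a median log2 change of −0.55. Higher were Slc7a11, the cystine and glutamate exchanger, with its partner subunit Slc3a2, and Slc1a5. Slc7a11 measured 2.83, 2.56 and 3.98 FPKM in the sham cords, against 14.64, 13.63 and 7.46 after injury (log2 change 1.61, SE 0.25, limma adjusted p = 0.0016). Slc3a2 went from 63.0 ± 1.27 to 105 ± 1.67. Among the lower genes were Got1, the cytosolic aspartate aminotransferase (304 ± 12.3 to 161 ± 27.5), Glud1, the mitochondrial glutamate dehydrogenase (233 ± 3.64 to 178 ± 8.98), and Slc7a10, a carrier of glycine and D-serine found in astrocytes (103 ± 3.22 to 55.0 ± 9.71). Slc17a7 and Slc17a8, vesicular glutamate carriers of neurons, were too low to test.

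Slc6a11 had the largest change of the members. It encodes GAT-3, the GABA carrier that sits on astrocyte processes. Slc6a11 measured 232.00, 207.78 and 207.09 FPKM in the sham cords, against 46.20, 54.83 and 66.88 after injury. Every injured library held less than any sham library by a wide gap. The level fell 3.85-fold, a log2 change of −1.94 (SE 0.13, limma adjusted p = 5.2e-05), and lay between −2.08 and −1.81 under the 15 alternatives.

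Slc6a13, a GABA carrier of meninges, ranged from 2.98 to 7.08 FPKM without injury and from 3.41 to 5.49 with it and did not pass, and Slc6a12 was too low to test.

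Slc6a9 encodes GlyT1, the glycine carrier of astrocytes, and Slc6a5 encodes GlyT2, that of glycinergic nerve terminals. Slc6a9 measured 101.69, 109.48 and 107.92 FPKM in the sham cords, against 67.39, 61.35 and 78.06 after injury. The groups did not overlap, and the log2 change was −0.62 (SE 0.10, limma adjusted p = 0.0017). Slc6a5 measured 123.06, 136.39 and 120.17 FPKM in the sham cords, against 53.63, 36.98 and 59.68 after injury (log2 change −1.35). Slc6a9 was below Slc6a5 in each sham library, at 0.826, 0.803 and 0.898 times, and above it in each SCI library, at 1.26, 1.66 and 1.31 times. The ratio was 1.66-fold higher in injured cord (exact permutation p = 0.10, the smallest possible). The gene span of Slc6a9 (chromosome 4, 117834506 to 117875198) overlaps B4galt2 and Ccdc24 on the other strand, at 9.09 to 11.89 and 1.07 to 4.87 FPKM, and whether reads were assigned by strand is not given in the sources used here.

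**Figure D3:**
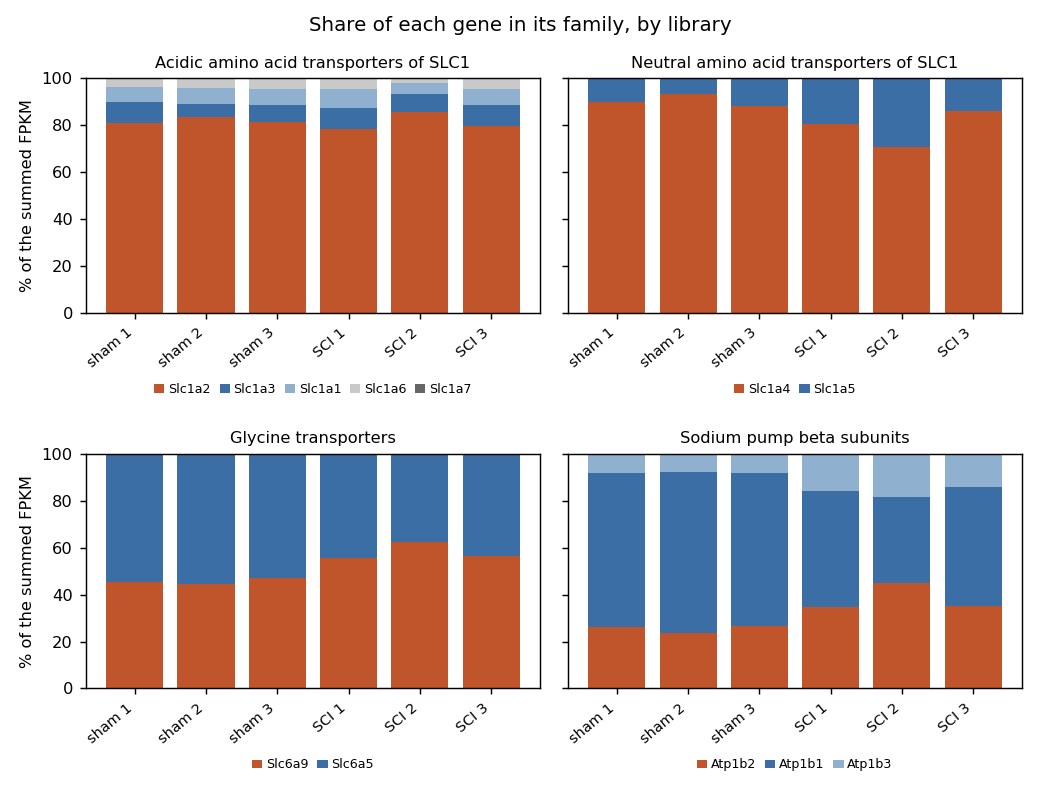
Share of each gene in the summed FPKM of its transporter or pump family, 1 bar per library, with the first gene of each key at the bottom of its bars. Atp1b2 takes 23.9% to 26.8% of the beta subunits in sham and 34.9% to 45.0% in SCI libraries, while Slc1a2 holds 78.4% to 85.7% of the acidic carriers in all 6.

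The list of other genes for GABA and glycine uptake and breakdown had 9 of 13 tested members lower and 2 higher, with a median log2 change of −0.61. Abat, the GABA transaminase of mitochondria, went from 171 ± 5.07 to 76.3 ± 9.47 FPKM (log2 change −1.16). Aldh5a1, the next enzyme of GABA breakdown, went from 46.7 ± 1.24 to 21.9 ± 3.56. Slc32a1, the vesicular carrier of GABA and glycine in neurons, had the largest fall of the list (log2 change −1.38). The higher genes were Slc6a6, the taurine carrier (31.5 ± 2.07 to 52.4 ± 1.46), and Gldc, a subunit of the glycine cleavage system (1.46 ± 0.257 to 2.56 ± 0.715), which was chosen for mention after its values were seen. The number higher was 1 in place of 2 without any 1 library other than SCI replicate 2.

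Aqp4, the main water channel of astrocytes, moved against the 7 members that fell. Aqp4 measured 172.99, 195.62 and 242.25 FPKM in the sham cords, against 291.69, 325.13 and 334.67 after injury. The sham libraries spread widely, and the highest of them was still below every SCI library. The level rose 1.56-fold, a log2 change of 0.65 (SE 0.13, limma adjusted p = 0.0047). Against Slc1a2 in the same library Aqp4 was 0.585, 0.678 and 0.847 times in sham and 2.01, 1.98 and 2.06 times in SCI libraries, a 2.90-fold higher ratio (exact permutation p = 0.10, the smallest possible). The injured libraries hardly differed from each other in this ratio.

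Kcnj10, the Kir4.1 potassium channel that shares the endfeet with Aqp4, measured 291.57, 318.93 and 311.47 FPKM in the sham cords, against 254.20, 277.43 and 292.86 after injury. The groups overlapped by a narrow margin (log2 change −0.16, SE 0.08, limma adjusted p = 0.13). Aqp4 was below Kcnj10 in the sham libraries (0.593, 0.613 and 0.778 times) and above it in the SCI libraries (1.15, 1.17 and 1.14 times), with exact permutation p = 0.10, the smallest possible. Of the summed FPKM of 4 chosen aquaporins (Aqp4, Aqp1, Aqp9 and Aqp11), Aqp4 made up 97.1% ± 0.350 in sham and 95.2% ± 1.29 in SCI libraries. Other aquaporins were not included. Aqp1, a water channel of epithelia and sensory fibres, went from 0.687 ± 0.214 to 12.2 ± 5.51 (log2 change 2.89), and was at 10.95, 7.42 and 18.22 in SCI replicates 1, 2 and 3. Every sham library was under 1 FPKM, so Aqp1 entered the test only through the group where it was high, had to differ, and was not tested once an SCI library was left out. SCI replicate 3, the highest of them, was also the library with genes of sensory ganglion neurons. Scn10a and Mrgprd were at 0 in SCI replicates 1 and 2, where Aqp1 was also above every sham library. Any link between them was not tested. Aqp11, an intracellular aquaporin, fell from 3.63 ± 0.0929 to 1.46 ± 0.229.

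The list of water channels, the endfoot dystrophin complex and volume control had 8 of 15 members lower and 3 higher, with a median log2 change of −0.27. Aqp1, admitted to the test by its own rise, is 1 of the 3. Mlc1 and Hepacam, membrane proteins of astrocyte junctions, measured 162 ± 6.59 and 111 ± 1.15 FPKM in the sham cords, against 135 ± 2.53 and 91.1 ± 10.9 after injury. Dtna, the dystrobrevin of the complex that anchors Aqp4, had a log2 change of −0.52. The calls on Dtna and Hepacam ended without any 1 of the sham libraries (limma adjusted p from 0.083 to 0.096) and when low genes were kept in (adjusted p = 0.082 and 0.065), that on Hepacam also without the trend (adjusted p = 0.057), and that on Mlc1 without sham replicate 3 (adjusted p = 0.058). Without SCI replicate 2 the log2 change of Dtna was −0.30, and that of Hepacam went from −0.29 to −0.19. Without any 1 library the number lower lay between 3 and 7, with 3 without sham replicate 3 and 4 without sham replicate 1 or 2. The number higher was 1 without SCI replicate 1 or 3 and 2 without SCI replicate 2. Aqp1 was not tested without any 1 of the SCI libraries. Without SCI replicate 1 or 3 a call other than that on Aqp1 also ended. Trpv4, a cation channel that responds to swelling, rose from 1.17 ± 0.176 to 3.42 ± 0.301.

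**Figure D4:**
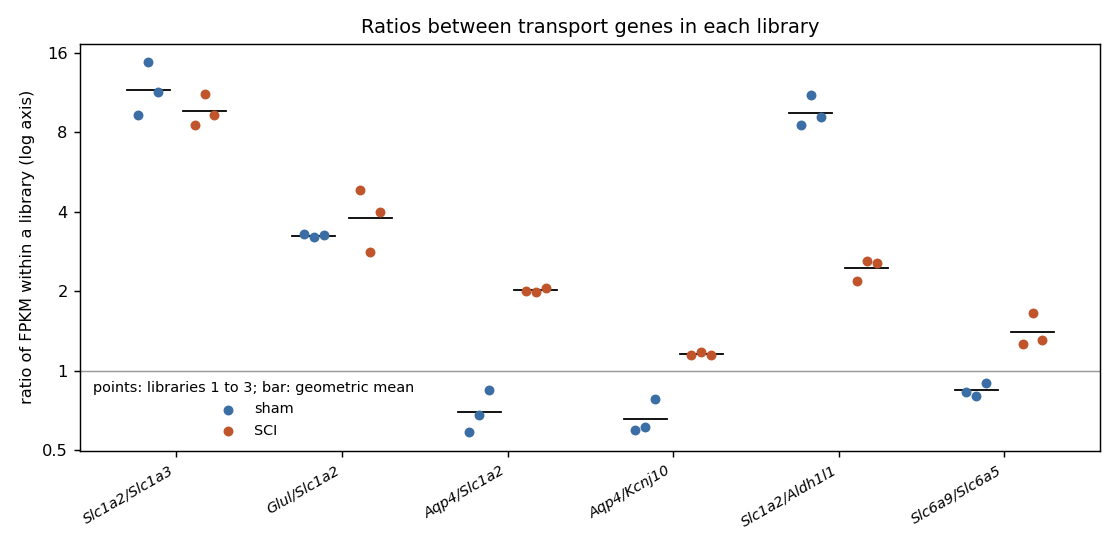
Ratio of FPKM of 2 genes within each library on a log axis, for 6 pairs, with the geometric mean of each group as a bar. The pairs Aqp4/Slc1a2, Aqp4/Kcnj10 and Slc6a9/Slc6a5 lie below 1 in all sham and above 1 in all SCI libraries.

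The sodium pump pairs an alpha subunit, which moves the ions, with a beta subunit. Atp1b2 encodes the beta subunit best known from glia. Atp1b2 measured 544.74, 516.51 and 538.81 FPKM in the sham cords, against 412.53, 428.23 and 479.02 after injury. The groups did not overlap, but SCI replicate 3 came close to the sham range. The log2 change was −0.28 (SE 0.09, limma adjusted p = 0.025), the smallest fall among the members. The call ended without any 1 of the sham libraries or SCI replicate 1 (adjusted p from 0.054 to 0.095), under median-ratio scaling (adjusted p = 0.074), when low genes were kept in (adjusted p = 0.069) and with a replicate block (adjusted p = 0.053).

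Atp1b1, the beta subunit abundant in neurons, fell from 1387 ± 89.6 to 542 ± 174, and Atp1b3 was at 164 ± 0.737 and 183 ± 8.93 (not past the threshold, though past it under median-ratio scaling and without SCI replicate 2). Of the summed FPKM of the 3 beta subunits, Atp1b2 made up 26.3%, 23.9% and 26.8% in sham and 34.9%, 45.0% and 35.2% in SCI libraries. SCI replicate 2, with the highest share, had the lowest Atp1b1.

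The list of potassium buffering, sodium pump and chloride genes had 10 of 15 members lower and 0 higher in limma, with a median log2 change of −0.60. Fxyd7, a pump regulator of the brain, had the largest fall (140 ± 5.14 to 50.9 ± 13.8, log2 change −1.48). Kcnj16, the channel subunit that pairs with Kcnj10, was at 22.8 ± 1.08 and 27.0 ± 4.27 FPKM and did not pass. At an unadjusted p under 0.05 the number higher was also 0. The number higher was 1 under median-ratio scaling and without SCI replicate 2.

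Slc4a4 encodes NBCe1, which moves sodium with bicarbonate and sets the pH of astrocytes. Slc4a4 measured 68.40, 60.89 and 63.01 FPKM in the sham cords, against 44.12, 50.61 and 49.34 after injury. The groups did not overlap, and the level fell 1.33-fold, a log2 change of −0.41 (SE 0.08, limma adjusted p = 0.0052). It lay between −0.45 and −0.33 under the 15 alternatives, all past the threshold. The list of bicarbonate, proton and lactate transport genes had 6 of 13 members lower and 2 higher, with a median log2 change of −0.28. Car14, a membrane carbonic anhydrase, fell from 58.9 ± 8.01 to 21.4 ± 6.03 FPKM, and Car2, the abundant cytosolic enzyme of oligodendrocytes and other glia, was at 391 ± 44.4 and 329 ± 85.8 (not past the threshold). Slc16a3, the lactate carrier of glycolytic cells, rose from 0.817 ± 0.186 to 14.0 ± 5.77 (log2 change 2.97), with 14.46, 19.55 and 8.03 in SCI replicates 1, 2 and 3. In the sham libraries Slc16a3 was at 1.01, 0.80 and 0.64, so it passed the filter mainly through the group where it was high. Slc9a3r1, a scaffold for membrane carriers, rose from 45.4 ± 2.49 to 73.3 ± 3.75.

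**Figure D5:**
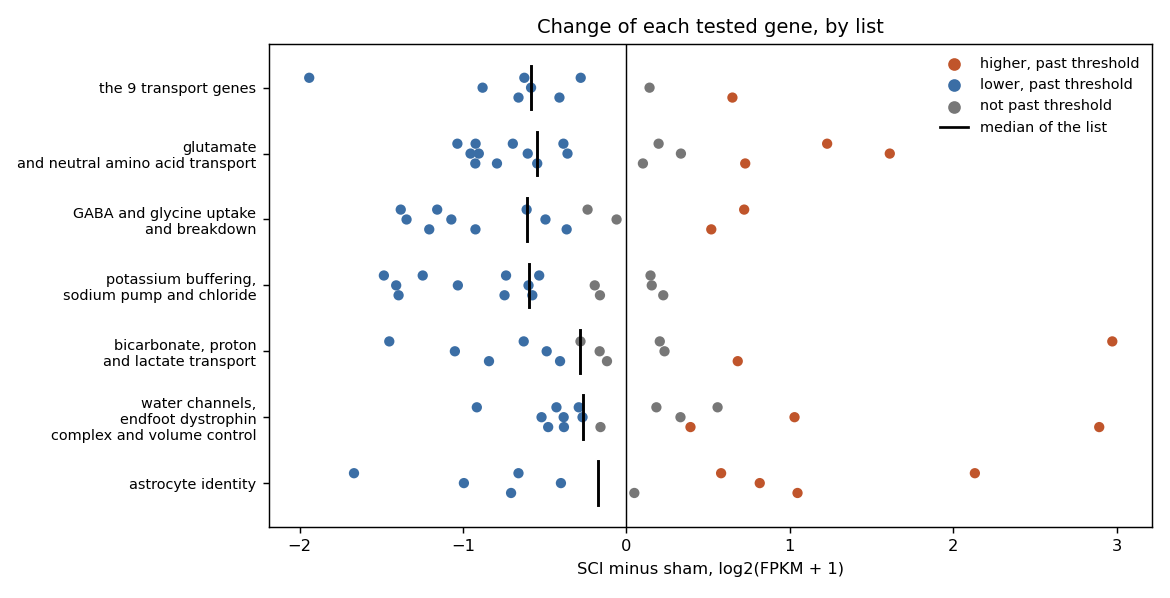
Change of every tested gene (SCI minus sham, log2(FPKM + 1)) in the 9 members, the 5 transport lists and the astrocyte identity list, coloured by call, with the median of each list as a bar. The medians of the 5 transport lists lie between −0.61 and −0.27, and each list but that of potassium buffering has genes past the threshold on both sides.

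Over the 5 lists together, 44 of 73 tested genes were lower (60.3%) and 10 higher (13.7%), with a median log2 change of −0.41. Over all genes tested 30.8% were lower and 26.7% higher. The lists were chosen with earlier results of these data known, so the comparison of these shares is not independent of that choice. The 10 include Aqp1 and Slc16a3, which would not have passed the filter on their sham libraries alone. These lists hold neuronal genes as well as astrocyte genes, and 9 of 10 neuron markers were lower.

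The injured libraries ranked in part alike and in part differently for members and for markers of other cells. The 7 members that fell were lowest in SCI replicate 1 for 4 of them (Slc1a2, Slc6a11, Slc4a4 and Atp1b2) and in SCI replicate 2 for 3 (Slc1a3, Glul and Slc6a9). Of 10 neuron and 10 oligodendrocyte markers, all reached their minimum in SCI replicate 2, where haemoglobin genes took the largest share, and 11 of 12 microglia and macrophage markers reached theirs in SCI replicate 1. The maximum fell in SCI replicate 3 for 6 of the 9 members and 8 of 10 neuron markers, in SCI replicate 1 for 8 of 10 oligodendrocyte markers, and in SCI replicate 2 for 10 of 12 microglia and macrophage markers. With 3 injured libraries these are counts only.

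The genes most like 2 of the members over the 6 libraries were found by the distance between profiles of log2(FPKM + 1) set against the sham mean, among 11842 genes with a mean of at least 5 FPKM. Closest to Slc1a2 were Tuba8, Rcn2 and Tlcd1 (distances 0.145, 0.150 and 0.194), and Rcn2 went from 106 ± 1.35 to 59.0 ± 2.49 FPKM. Closest to Aqp4 were Rb1, Ell2 and Irgm2 (distances 0.191, 0.192 and 0.201), and Rb1 went from 14.2 ± 1.71 to 22.5 ± 1.85.

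Each FPKM value covers a whole gene, and positions are those of the files on GRCm38. Slc1a2 lies on chromosome 2 from 102658659 to 102790784 and Slc6a11 on chromosome 6 from 114131241 to 114249952, both on the plus strand. Glul lies on chromosome 1 from 153899944 to 153909723 and Slc4a4 on chromosome 5 from 88886486 to 89239653, both on the plus strand. On the minus strand are Slc1a3 (chromosome 15, 8634124 to 8710764), Slc1a4 (chromosome 11, 20302180 to 20332713) and Atp1b2 (chromosome 11, 69599736 to 69605942). Aqp4 spans 15389496 to 15410982 of chromosome 18 (minus strand), and Gm50048 overlaps it in the opposite sense at 0.51 to 2.30 FPKM. Mir8114 overlaps the start of Glul on the same strand.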

How the data were processed

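RNA-seq was done on polyA-selected RNA from spinal cord tissue, per the labels' protocols, with 3 sham and 3 SCI libraries. The authors deposited FPKM per gene and library, 1 file each, and per the submitters' processing notes the tools included StringTie 1.3.4d and HISAT2 2.0.4, with cutadapt 1.9 and UMI-tools, and their roles are not stated. The notes name mm9, but 91.6% of the 36502 gene IDs shared with GENCODE M21 have its GRCm38 positions in the files, so coordinates are given as GRCm38. The strand setting is not given in the sources used here. FPKM carry no read counts, and low values showed no common step (at most 5.45% of short low genes in the fullest bin), so depth is unknown.

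SCI was compared with sham in limma 3.58.1 under R 4.3.3, on log2(FPKM + 1) and allowing the variance to follow the mean, with all 6 libraries in 1 fit with no block. A gene was tested if 3 or more libraries reached 1 FPKM (17435 of 36629), with Benjamini-Hochberg adjustment and a threshold of 0.05, and the script was tested on simulated data. Ratios within a library were compared by a two-sided exact permutation test. Fold changes on the log2(FPKM + 1) scale understate low genes, while folds between means use FPKM.

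The members and lists were chosen with earlier results of these data known. Named by rule were all members, the 2 most changed and 2 most abundant genes of each transport list, the genes of the ratio pairs, and the 3 genes most alike to Slc1a2 and to Aqp4. Slc3a2, Slc7a10, Slc1a1, Slc1a6, Slc6a6, Slc6a13, Aldh5a1, Gldc, Atp1b3, Kcnj16, Aqp11, Trpv4, Ntsr2 and Acsbg1, and the family shares, were added after values were seen. Results on some genes, with 2 of the 8 ratios, are not reported here. Other marker lists are given by counts and sums. Alternatives changed the pseudocount, filter, scaling, trend and block, and left out each library in turn.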

Additional observations from a re-analysis of the deposited data

How the results depend on the processing

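Over 15 alternatives, 126 of 135 values for the 9 members kept their direction and side of the threshold, 9 lost the call (Slc1a3 and Atp1b2), and no value reversed. Atp1b2 lost its call with no filter on low values (log2 change −0.28), under median-ratio scaling (−0.20) and with a replicate block (−0.28), and lay between −0.34 and −0.23 without any 1 library. Slc1a3 lay between −0.75 and −0.42 without any 1 library. Slc1a4 did not pass under any alternative (0.05 to 0.22, limma adjusted p from 0.052 to 0.70). Members lower numbered 5 to 7 and members higher 1 without any 1 library.

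Among counts in the transport lists, 163 of all member and list counts stayed within 1.5 times and 17 did not. The GABA and glycine list had 1 gene higher with no filter, with a mean of at least 5 FPKM, under quantile normalization and with the replicate block, and 1 to 2 without any 1 library. The potassium list had 1 higher under median-ratio scaling and 0 to 1 without any 1 library. The water list had 4 lower with no filter, and 3 to 7 lower and 1 to 3 higher without any 1 library. The causes were not tested, except that fewer libraries enter when 1 is left out.

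Replicate numbers are shared by the groups. The correlations of same-numbered libraries' deviations were −0.01, −0.04 and 0.02, against −0.03 to 0.04 for libraries with different numbers. These values show no pairing, but with 3 libraries a group they cannot exclude one, so whether the numbers pair the samples is unknown. The block called 4398 genes higher and 5045 lower (4653 and 5371 without it), and among the 9 members it changed the call of Atp1b2 alone. The unknown depth and 3 libraries a group limit the precision.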
